A study of Mus musculus with 16 samples.

Results

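The expression of 10 genes of matrix breakdown and repair was followed in sorted retinal microglia, the tissue macrophages of the retina, of mouse pups with and without oxygen-induced retinopathy (OIR). OIR is a model in which a period of high oxygen stops vessel growth, and on return to room air the retina becomes hypoxic and forms abnormal vessels. The genes were the metalloproteases Mmp12, Mmp14, Adam8 and Adam17, the urokinase gene Plau and its receptor Plaur, the matrix proteins Fn1 and Tgfbi, and the protease inhibitors Timp1 and Timp2. They were taken by symbol, and all 10 were found among the 54532 genes of the deposited table. All mice were Cx3cr1CreERT2:Rosa26-tdTomato reporters at postnatal day 17, in which tamoxifen (5 µl at 21 mg per ml), injected under the skin at postnatal day 1, switched on tdTomato in cells that express Cx3cr1. Both groups were sorted as CD45low, CD11b+, Tom+, Ly6C- and Ly6G- cells. There were 8 OIR and 8 nonOIR libraries, and no label states that each came from an animal of its own, so p-values reflect the spread among these libraries, part of which may be technical.

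The depth per library was 20771745 to 30001463 counts in OIR and 13591651 to 27972049 counts in nonOIR. A lane code in the labels put 5 libraries of each group in lane 1 and 3 of each group in lane 2, and whether the code also separates litters, sorts or preparations is not stated. Levels are CPM (counts divided by the library size in megareads), after scaling by trimmed mean of M values (TMM). Of 12496 genes tested with edgeR's quasi-likelihood test, 6.39% were higher and 4.56% lower in OIR at a Benjamini-Hochberg adjusted p under 0.05. Of the called genes 58.3% were higher in OIR, and 73.7% with library size scaling in place of TMM. The median log2 fold change over all tested genes was -0.0305.

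Matrix metalloproteases are zinc enzymes that cut collagens, elastin and other matrix proteins, and ADAMs are related membrane proteases that mostly release the outer parts of cell surface proteins. Urokinase, held at the membrane by its receptor, turns plasminogen into plasmin, which cuts fibrin and activates other proteases. TIMP proteins bind and block metalloproteases, and fibronectin and TGFBI are secreted proteins that integrins bind. Macrophages use this set to move through tissue and to reshape the matrix around vessels.

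The upstream stretches shown here are those of the Mmp12 and Plaur starts that hold a searched macrophage or stress motif, since both genes were higher in OIR. They come from a set of RefSeq promoters (GRCm38.p6) that holds 9 starts for 8 of the 10 genes. Fn1 and Plau had no entry in this set, and their upstream bases were not searched. Mmp12 has a pair of starts, and the second lies inside the gene as annotated from the first. Each line gives the 100 bases before the start on the strand of the gene, and capitals mark the motif:
Mmp12 first start, chr9:7344297-7344396, + strand, PU.1 motif: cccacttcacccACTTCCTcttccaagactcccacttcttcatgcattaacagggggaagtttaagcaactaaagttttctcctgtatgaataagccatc
Mmp12 second start, chr9:7347274-7347373, + strand, AP-1 motif: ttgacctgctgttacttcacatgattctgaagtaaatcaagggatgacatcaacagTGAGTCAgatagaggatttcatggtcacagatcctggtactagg
Plaur start, chr7:24462383-24462482, + strand, AP-1 motif: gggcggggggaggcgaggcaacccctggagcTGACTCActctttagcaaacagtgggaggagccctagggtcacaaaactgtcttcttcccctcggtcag
The letters TGANTCA (AP-1), AGGAAGT (PU.1) and ACGTG (hypoxia response) were searched on both strands of the 250 bases before each start, and the PU.1 match of Mmp12 is on the opposite strand. AP-1 letters were found at 2 of the 9 starts, against 6.75% of the 32851 starts in the promoter set. PU.1 letters were found at 2 of the 9 starts (Mmp12 and Timp1), against 7.69% of all starts, and hypoxia response letters at 2 (Mmp14 and Timp1), against 16.6%. Adam8 and Tgfbi, which also rose in OIR, had no match to any of these letters, nor had Adam17 and Timp2. A match is a description of these letters, not evidence that a factor binds.

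In OIR, 5 of the 10 genes rose and 0 fell, against the 6.39% and 4.56% of all tested genes given above. Those that rose were Mmp12, Adam8, Fn1, Plaur and Tgfbi. Mmp14, Adam17, Plau and Timp2 did not pass the test, and Timp1 was too low to be tested. The median log2 fold change of the 9 tested genes was 0.60. For each of the 5 that rose, all 8 OIR libraries lay above the nonOIR median. That was also so for genes that did not pass, such as Adam15, Ctsd and Loxl3. Its share of all tested genes was not counted, so it adds nothing to the calls. In none of the 9 tested genes were the OIR and nonOIR libraries fully apart, which held for 1.34% of all tested genes on the higher side. In bulk samples, more cells with a transcript and more of that transcript per cell cannot be told apart.

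**Figure D1:**
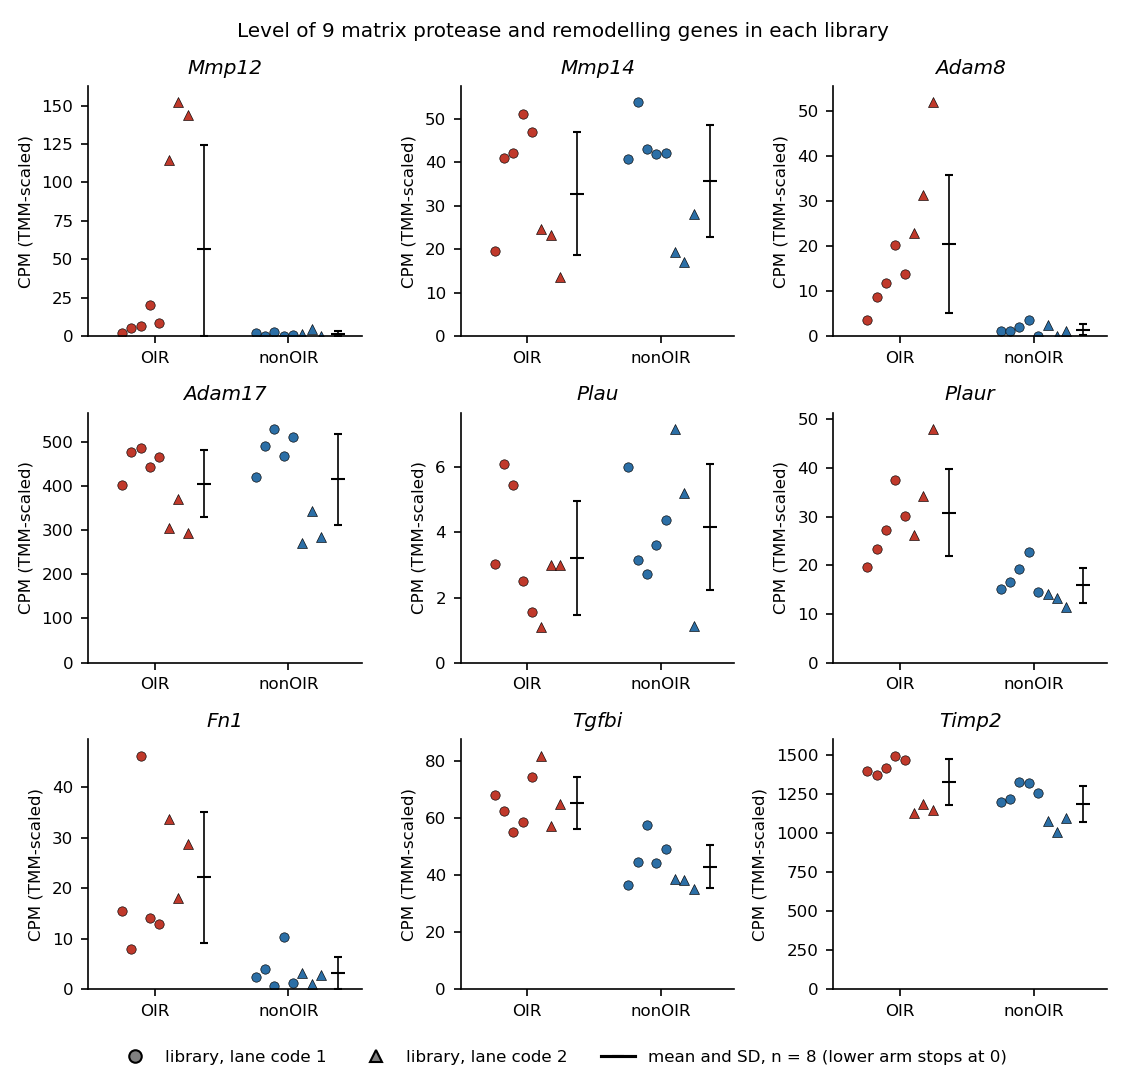
Level (CPM after TMM scaling, linear axis from 0) of 9 genes in each OIR and nonOIR library, with circles for lane code 1 and triangles for lane code 2, and the mean with SD (n = 8) beside each group. Mmp12 stands at 115 to 152 CPM in the 3 lane 2 OIR libraries and at or below 19.9 in the 5 lane 1 OIR libraries, while Timp2 is higher in OIR within each lane.

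Mmp12, the macrophage elastase (ENSMUSG00000049723, mm10 chromosome 9 from 7344381 to 7369499), had the largest relative spread between OIR libraries of the 9 tested genes (coefficient of variation 119%). In lane 2 it stood at 115, 152 and 144 CPM in OIR, against 1.38, 4.52 and 0.0869 CPM in nonOIR. In lane 1 it stood at 1.99, 5.20, 6.47, 19.9 and 8.37 CPM in OIR, against 1.93, 0, 2.56, 0 and 0.621 CPM in nonOIR. The groups were thus far apart in lane 2 and overlapped in lane 1, where OIR replicate 1, the lowest OIR library, lay among the nonOIR libraries. Over all libraries the log2 fold change was 5.36 ± 1.05 (SE, edgeR adjusted p = 0.00292). With single libraries left out it ranged from 5.00 (without OIR replicate 7) to 6.00 (without nonOIR replicate 7). It was 6.12 ± 0.72 in lane 2 (edgeR adjusted p = 0.00107) and 3.08 ± 1.00 in lane 1, where it did not pass (edgeR adjusted p = 0.127). The difference between the lanes was 2.92 ± 1.31 on the log2 scale, which had an unadjusted p of 0.0403 and did not pass after adjustment (edgeR adjusted p = 0.349). With limma-voom the Mmp12 call was lost (log2 fold change 5.62 ± 2.93, limma adjusted p = 0.235). The authors' deposited table gives a log2 fold change of 0.80 ± 0.25 with an adjusted p of 0.0162. That fold change is far below the edgeR estimate, and the labels and headers do not say whether it was shrunken. The authors' deposited table gives 1.34 for Adam8 and 1.71 for Fn1, also below the edgeR values in the paragraphs on those genes. For Plaur and Tgfbi the authors' deposited table gives 0.89 and 0.59, close to the edgeR values. Exons of Mmp12 overlap those of Mmp1b on the other strand, and Mmp1b had 0 counts in all 16 libraries.

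The OIR libraries of lane 2 also held the highest levels of border macrophage markers, genes of the macrophages of vessels and meninges. The sum of 10 such markers was 664, 631 and 656 CPM there, against 311, 169 and 121 CPM in lane 2 nonOIR. In lane 1 it ranged from 241 to 382 CPM in OIR and from 146 to 440 CPM in nonOIR. All 10 markers were tested, 0 passed, and the highest by the mean over all 16 libraries were Stab1 (188 ± 30.3 CPM in OIR and 120 ± 54.5 in nonOIR), Pf4 (77.3 ± 75.0 and 30.2 ± 28.1) and Ms4a7 (46.9 ± 38.1 and 34.5 ± 18.2; SD, n = 8). The 10 microglial markers were lowest in the same 3 libraries, with sums of 38159, 44804 and 40388 CPM in lane 2 OIR and 65173 to 69723 CPM in lane 2 nonOIR, against 53488 to 63417 CPM in lane 1 OIR and 66415 to 80702 CPM in lane 1 nonOIR. The part of either list in the Mmp12 result was not tested.

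Genes were ranked by their likeness to Mmp12 as Pearson r of log2(CPM + 1) over the 16 libraries, after each group's mean was taken away. Among 8048 genes with at least 10 CPM in either group, the 5 most alike were Lgals3 (r = 0.927), which encodes galectin-3, Tpm4 (0.923), a tropomyosin, Slc40a1 (0.921), the iron exporter ferroportin, Sh3bgrl (0.90) and Naa50 (0.896), an acetyltransferase subunit. All 5 rose in OIR, where 6.39% of all tested genes were called higher. In each, the 3 lane 2 OIR libraries were the highest of all 16, as for Mmp12. The genes were picked for following Mmp12, whose spread comes mostly from these 3 libraries. High values there, and with them a rise in OIR, thus follow largely from the choice and are no separate result. Lgals3 stood at 256 to 345 CPM in these, at 37.8 to 70.6 CPM in lane 1 OIR and at 3.57 to 12.6 CPM in nonOIR. With the mean of each lane and group taken away, r was between 0.514 (Sh3bgrl) and 0.710 (Tpm4), so part of the likeness lay between lanes. Among the studied genes Adam8 was the most alike (r = 0.613) and Timp2 the least (r = -0.678). These libraries share lane and group, and the values are descriptions of the libraries.

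**Figure D2:**
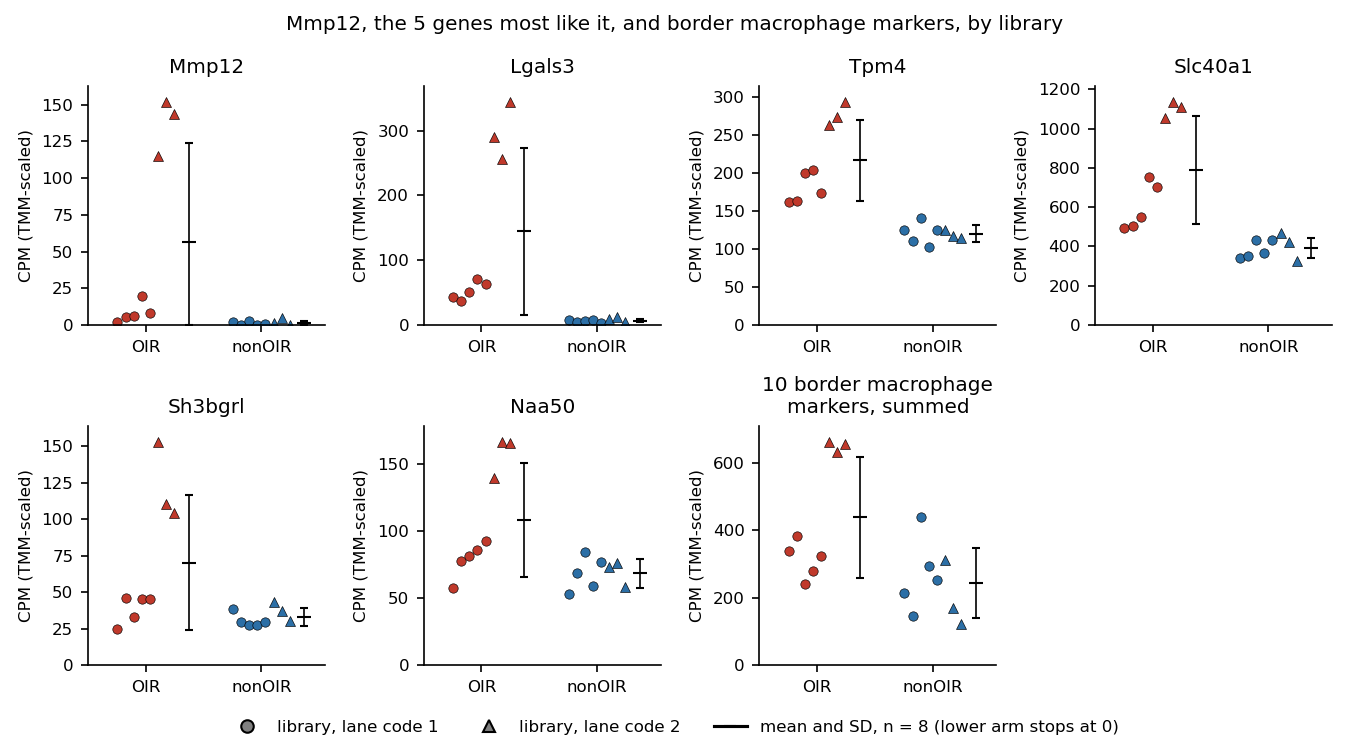
Level (CPM after TMM scaling) of Mmp12, of the 5 genes whose pattern is most like it, and of 10 border macrophage markers summed, in each OIR and nonOIR library, with symbols for the lane code and the mean with SD (n = 8). In every panel the 3 OIR libraries of lane 2 are the highest of the 16.

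Adam8, a membrane protease of activated myeloid cells (ENSMUSG00000025473, chromosome 7 from 139978932 to 139992562), was low in nonOIR, with 0 to 81 counts per library. Its lowest, median and highest levels were 3.61, 17.0 and 52.0 CPM in OIR, against 0, 1.12 and 3.63 CPM in nonOIR. The groups touched at 1 point only, OIR replicate 1 at 3.61 CPM and nonOIR replicate 4 at 3.63 CPM. The log2 fold change was 3.86 ± 0.68 (SE, edgeR adjusted p = 0.00135), with 4.98 ± 0.83 in lane 2 (edgeR adjusted p = 0.00446) and 2.90 ± 0.69 in lane 1 (edgeR adjusted p = 0.0397). Adam8 was the only one of the 10 genes that passed within both lanes. The antisense gene Gm16201 overlaps its exons and stood at 0.668 ± 0.395 CPM in OIR and 0.739 ± 0.553 CPM in nonOIR (SD, n = 8), and reads of the pair cannot be told apart by strand.

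Adam17 (TACE), the protease that releases TNF and many receptors from the membrane (ENSMUSG00000052593, chromosome 12 from 21323509 to 21373632), was high in both groups. Exons of Iah1 on the other strand overlap those of Adam17, and reads of the pair cannot be told apart by strand. Iah1 stood at 37.2 ± 7.73 CPM in OIR and 29.0 ± 7.21 CPM in nonOIR (SD, n = 8). The lowest, median and highest levels of Adam17 were 293, 422 and 486 CPM in OIR, against 270, 445 and 529 CPM in nonOIR, and the groups lay over each other. The log2 fold change was -0.0343 (95% interval -0.35 to 0.28, edgeR adjusted p = 0.922), and its sign changed with library size scaling and in lane 2. The level followed the lane code instead. It was 323 ± 42.2 CPM in OIR and 299 ± 38.2 CPM in nonOIR in lane 2 (SD, n = 3), and 454 ± 33.5 CPM in OIR and 484 ± 42.4 CPM in nonOIR in lane 1 (SD, n = 5). In a fit with group and lane, chosen after these values were seen, Adam17 was lower in lane 2 than in lane 1 by a log2 difference of -0.59 ± 0.0765 (SE, edgeR adjusted p = 1.85e-05).

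Mmp14 (MT1-MMP), a membrane collagenase that also activates pro-MMP2 together with TIMP2 (ENSMUSG00000000957, chromosome 14 from 54431612 to 54445364), showed the same split by lane. It ranged from 13.7 to 24.6 CPM in OIR and from 16.9 to 28.0 CPM in nonOIR in lane 2. In lane 1 it ranged from 19.5 to 51.0 CPM in OIR and from 40.7 to 53.7 CPM in nonOIR. OIR replicate 1 was the one lane 1 library at the level of lane 2. The lane 2 to lane 1 log2 difference was -1.01 ± 0.18 (SE, edgeR adjusted p = 0.000527). The OIR to nonOIR log2 fold change was -0.12 (95% interval -0.70 to 0.46, edgeR adjusted p = 0.84). Of all tested genes 13.8% were lower and 11% higher in lane 2, and of the 9 tested here Mmp14, Adam17 and Timp2 were lower and Mmp12 was higher (log2 difference 3.03 ± 0.76 SE, edgeR adjusted p = 0.00772). For Mmp12 the OIR mean was 137 CPM in lane 2 and 8.38 CPM in lane 1. Its nonOIR mean was 2.00 CPM in lane 2 and 1.02 CPM in lane 1, and the nonOIR libraries of the lanes overlapped.

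Plaur, the urokinase receptor (ENSMUSG00000046223, chromosome 7 from 24462484 to 24475968), was a little less than 2-fold higher in OIR. It stood at 19.7, 28.7 and 48.0 CPM (lowest, median and highest) in OIR, against 11.5, 14.9 and 22.7 CPM in nonOIR. OIR replicate 1 was the lowest and OIR replicate 8 the highest of the OIR libraries, as they were for Adam8. The log2 fold change was 0.96 ± 0.18 (SE, edgeR adjusted p = 0.00229). It was 1.53 ± 0.25 in lane 2 (edgeR adjusted p = 0.00382) and 0.65 ± 0.19 in lane 1, where it did not pass (edgeR adjusted p = 0.0866). The difference between the lanes was 0.84 ± 0.32 on the log2 scale and did not pass after adjustment (unadjusted p = 0.017, edgeR adjusted p = 0.239).

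Plau, the urokinase that this receptor holds (ENSMUSG00000021822, chromosome 14 from 20836660 to 20843385), did not pass the test. It stood at 1.08, 3.01 and 6.09 CPM (lowest, median and highest) in OIR, against 1.13, 4.00 and 7.18 CPM in nonOIR. The groups overlapped almost throughout, with 6 of 8 OIR libraries below the nonOIR median. The log2 fold change was -0.37, with a 95% interval from -1.17 to 0.43 (edgeR adjusted p = 0.602).

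Fn1 (fibronectin, ENSMUSG00000026193, chromosome 1 from 71585520 to 71653200) was low in nonOIR, with 12 to 230 counts per library. It stood at 15.6, 7.93, 46.2, 14.0 and 12.9 CPM in lane 1 OIR and at 33.7, 18.1 and 28.7 CPM in lane 2 OIR. The nonOIR libraries held 2.44, 4.04, 0.654, 10.3 and 1.24 CPM in lane 1 and 3.30, 0.936 and 2.78 CPM in lane 2. The only overlap came from nonOIR replicate 4, which exceeded OIR replicate 2. The log2 fold change was 2.78 ± 0.50 (SE, edgeR adjusted p = 0.00156). It was 3.57 ± 0.45 in lane 2 (edgeR adjusted p = 0.00118) and 2.37 ± 0.66 in lane 1, where it did not pass (edgeR adjusted p = 0.0686). Exons of Fn1 overlap those of Apol7d on the other strand, and Apol7d had 14 counts in OIR and 3 in nonOIR. Fn1 is also a gene of fibroblasts, pericytes and monocytes. The 10 pericyte and fibroblast markers summed to 0.0691 to 5.71 CPM in OIR and 0.492 to 10.3 CPM in nonOIR, too few to be tested, with Rgs5, Cspg4 and Pdgfra each at or below 1.17 CPM on average. The 12 monocyte markers summed to 16.5 to 36.6 CPM in OIR and 12.4 to 15.1 CPM in nonOIR in lane 1, where the groups did not overlap. In lane 2 they summed to 21.9 to 32.3 CPM in OIR and 21.0 to 24.7 CPM in nonOIR. Of these, 4 were tested and 1 rose, the membrane protein gene Ms4a4c (16.7 ± 4.68 CPM in OIR and 9.92 ± 3.79 CPM in nonOIR), while Ccr2, the monocyte chemokine receptor gene, stood at 5.22 ± 3.78 CPM in OIR and 5.44 ± 1.32 CPM in nonOIR (SD, n = 8). Plac8 averaged 3.23 ± 3.62 CPM in OIR and 0.831 ± 0.399 CPM in nonOIR and did not pass, nor did S100a4 (0.866 ± 0.514 CPM in OIR and 0.298 ± 0.24 CPM in nonOIR), and Ly6c2 and Ms4a8a had 0 counts in all libraries. The sort kept CD45low, CD11b+ and Tom+ cells and left out Ly6C+ cells, a gate that removes Ly6C+ monocytes and CD11b-negative stromal cells. The part of monocytes in the Fn1 result was not tested.

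Tgfbi, a secreted adhesion protein induced by TGF-beta (ENSMUSG00000035493, chromosome 13 from 56609523 to 56639562), had the smallest rise and the smallest relative spread of the 5. Its lowest, median and highest levels were 55.4, 63.8 and 82.0 CPM in OIR, against 35.1, 41.4 and 57.8 CPM in nonOIR. Only nonOIR replicate 3 reached into the OIR range. The log2 fold change was 0.60 ± 0.12 (SE, edgeR adjusted p = 0.0028). It was 0.91 ± 0.17 in lane 2 (edgeR adjusted p = 0.00667) and 0.47 ± 0.13 in lane 1, where it did not pass (edgeR adjusted p = 0.0752).

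The inhibitor Timp2 (ENSMUSG00000017466, chromosome 11 from 118301069 to 118355740) was the most abundant of the 10 and passed the test with lane in the fit but not without it. In lane 2 it stood at 1130, 1189 and 1150 CPM in OIR, against 1078, 1009.8 and 1099 CPM in nonOIR. In lane 1 it ranged from 1370 to 1497 CPM in OIR and from 1199 to 1328 CPM in nonOIR. The groups did not overlap in either lane, which was so on the higher side for 2.63% of all tested genes, whereas over all libraries they did. Without lane in the fit the log2 fold change was 0.16 ± 0.0811 (SE, edgeR adjusted p = 0.233), and with lane as a covariate it was 0.16 ± 0.0434 (edgeR adjusted p = 0.0173). It also passed with library size scaling (log2 fold change 0.23, edgeR adjusted p = 0.0406). The fit with lane called 9.68% of all genes higher and 7.59% lower. With the replicate number as a block Timp2 did not pass (edgeR adjusted p = 0.0528), nor in either lane alone. Timp2 was lower in lane 2 than in lane 1 by a log2 difference of -0.28 ± 0.0452 (SE, edgeR adjusted p = 0.000175).

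Timp1 (ENSMUSG00000001131, chromosome X from 20870166 to 20874735), an inhibitor that many glial and stromal cells induce on injury, was not detected in nonOIR and had 2 counts in OIR, both in replicate 8. A count of 0 allows up to 3 counts, or between 0.116 and 0.222 CPM in the nonOIR libraries, for counting error only. At this depth no difference could be detected.

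**Figure D3:**
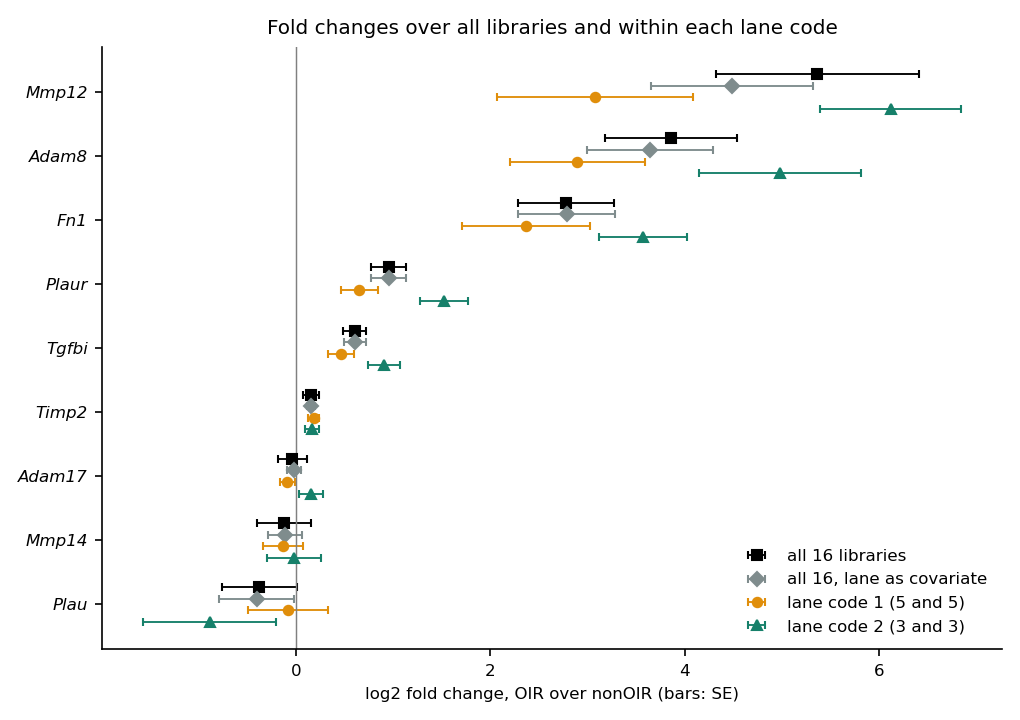
Log2 fold change of OIR over nonOIR with its SE for 9 genes, over all 16 libraries, with lane as a covariate, and within lane code 1 (5 and 5 libraries) and lane code 2 (3 and 3). For the 5 genes that rose, the lane 2 estimate lies above the lane 1 estimate, while Timp2 has 0.18 in lane 1 and 0.17 in lane 2.

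Within lane 2, all 5 risers passed, and their 3 OIR libraries lay above the 3 nonOIR libraries, as did those of Timp2. That separation held for 18.3% of all tested genes, and 9.63% were called higher and 5.77% lower there. Within lane 1 only Adam8 passed, where 2.2% of all genes were called higher and 1.13% lower. Of the 9 genes only Timp2 had no overlap of the groups in lane 1, which held for 3.29% of all tested genes with OIR higher. The lane effect on the OIR change passed for 0.496% of all tested genes (62 genes) and for 0 of the 9 tested here in edgeR's test of the interaction, although Mmp12 and Plaur had an unadjusted p under 0.05.

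Scaled by exon length, the genes covered a wide range of levels. Timp2 led with 341 ± 38.0 CPM per kb in OIR and 305 ± 29.9 in nonOIR (SD, n = 8). Adam17 followed at 56.6 ± 10.6 CPM per kb in OIR and 58.0 ± 14.4 in nonOIR. Tgfbi had 17.4 ± 2.43 and Plaur 11.8 ± 3.43 CPM per kb in OIR, against 11.4 ± 2.03 and 6.07 ± 1.37 in nonOIR. Mmp12 had 7.82 ± 9.34, Mmp14 5.50 ± 2.36 and Adam8 4.42 ± 3.32 CPM per kb in OIR, against 0.192 ± 0.219, 5.99 ± 2.16 and 0.305 ± 0.261 in nonOIR. The OIR value of Mmp12 pools lanes that differ. Before length scaling, its OIR mean was 137 CPM in lane 2 and 8.38 CPM in lane 1, against 20.5 and 40.1 CPM for Mmp14. The pooled values thus do not order these genes. Fn1 (1.89 ± 1.11) and Plau (1.36 ± 0.737) had the lowest means of the 9 over all OIR libraries and lay within each other's spread. They had 0.275 ± 0.265 and 1.76 ± 0.817 in nonOIR.

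**Figure D4:**
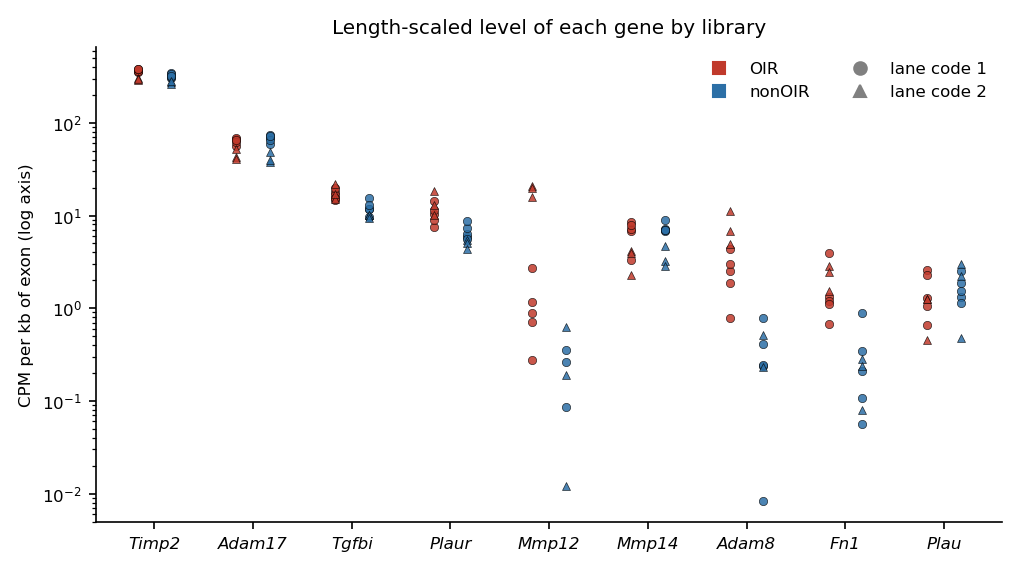
Level of each gene in CPM per kb of exon (log axis) in every library, OIR in red left of nonOIR in blue, circles for lane code 1 and triangles for lane code 2. Libraries at 0 (2 nonOIR for Mmp12 and 1 nonOIR for Adam8) cannot be drawn on a log axis; Timp2 and Adam17 lie above all other genes.

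The counts in the lists that follow stand beside 6.39% of all tested genes called higher and 4.56% called lower in OIR. The median log2 fold change of the tested genes was -0.385 for metalloproteinases, -0.0493 for ADAMTS and 0.147 for ADAM genes and partners. It was 0.198 for the plasminogen list, 0.0796 for cysteine and serine proteases, 0.158 for matrix proteins and 0.294 for cross-linking and hyaluronan. Of 21 further matrix metalloproteinase genes, 5 reached a testable level and 0 passed. The gelatinase gene Mmp2 stood at 42.3 ± 9.13 CPM in OIR and 38.6 ± 14.0 CPM in nonOIR (SD, n = 8), and the gelatinase gene Mmp9 was too low to test, with 149 counts in all OIR libraries together and 42 in all nonOIR libraries. Mmp13 and Mmp23 were not tested either, with 443 and 40 counts in OIR and 213 and 196 in nonOIR. Mmp1a, Mmp1b, Mmp3, Mmp7, Mmp10 and Mmp20 had 0 counts in all libraries. Of 19 ADAMTS genes, 3 were tested and Adamts16 fell, to 5.72 ± 2.30 CPM in OIR against 11.8 ± 2.97 CPM in nonOIR, a call that was lost in lane 2 alone (edgeR adjusted p = 0.0776). Of 6 further inhibitor genes only Reck was testable, and it did not pass (2.31 ± 1.78 CPM in OIR and 1.98 ± 1.75 CPM in nonOIR).

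Among 13 ADAM genes and partners of ADAM17, 8 were tested, 2 rose and 0 fell. Rhbdf2 encodes iRhom2, which carries ADAM17 to the surface in macrophages, and rose to 38.9 ± 8.16 CPM in OIR against 21.3 ± 7.09 CPM in nonOIR (log2 fold change 0.87 ± 0.19 SE, edgeR adjusted p = 0.00686). Its call was lost in lane 1 alone, where the log2 fold change was 0.69 (edgeR adjusted p = 0.139). Adam9 rose to 153 ± 33.7 CPM in OIR against 104 ± 21.9 CPM in nonOIR, a call that was lost without OIR replicate 7 (edgeR adjusted p = 0.0511) and in lane 1 alone. Its log2 fold change was 1.20 in lane 2 and 0.24 in lane 1, and the difference did not pass the interaction test (edgeR adjusted p = 0.0608). The other iRhom gene, Rhbdf1, and the iRhom partner Frmd8 did not pass, at 9.02 ± 5.69 and 117 ± 19.8 CPM in OIR and 8.47 ± 3.20 and 123 ± 18.6 CPM in nonOIR. Of 17 genes whose proteins ADAM17 or ADAM8 can release, 12 were tested, 2 rose and 0 fell. The median log2 fold change of the 12 was -0.155, below the -0.0305 of all tested genes. Those that rose were Tnf, at 7.12 ± 2.08 CPM in OIR and 2.35 ± 1.25 CPM in nonOIR, and the receptor kinase gene Axl, at 731 ± 141 CPM in OIR and 355 ± 70.7 CPM in nonOIR (SD, n = 8). The Tnf call was lost in lane 2 alone (edgeR adjusted p = 0.0622).

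In the plasminogen list 2 of 10 tested genes rose and 0 fell. Anxa2, a cell surface protein that gathers plasminogen and its activator, stood at 87.1 ± 40.0 CPM in OIR and 31.4 ± 5.78 CPM in nonOIR (log2 fold change 1.47 ± 0.23 SE, edgeR adjusted p = 0.000548). Its partner S100a10 did not pass, at 7.77 ± 3.21 CPM in OIR and 8.56 ± 3.07 CPM in nonOIR. The plasminogen receptor gene Plgrkt stood at 87.8 ± 13.5 CPM in OIR and 67.5 ± 10.9 CPM in nonOIR (SD, n = 8), and its call was lost in 10 of the 16 fits that each omit 1 library and in either lane alone. Plasminogen itself (Plg) had 0 counts in OIR and 1 count in nonOIR. The protease inhibitor gene Serpine2 stood at 2233 ± 258 CPM in OIR and 2487 ± 289 CPM in nonOIR and did not pass.

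In the list of cysteine and serine proteases of matrix turnover, which holds cathepsins, cystatins (their inhibitors) and other proteases such as Furin and Htra1, 2 of 9 tested genes rose and 2 fell. The cystatin gene Cst7 and the cathepsin gene Ctsb rose, to 86.7 ± 9.68 and 10799 ± 1109.9 CPM in OIR against 34.1 ± 8.49 and 7446 ± 1077 CPM in nonOIR. The inhibitor gene Cst3 (cystatin C) and Ctss (cathepsin S) fell, to 17204 ± 4244 and 18754 ± 4389 CPM in OIR against 32502 ± 3151 and 27180 ± 2491 CPM in nonOIR (SD, n = 8). The Ctss call was lost in lane 1 alone (edgeR adjusted p = 0.0874).

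Of 26 further matrix proteins 7 were tested, 3 rose and 0 fell, and the collagen genes of the list were all below the testing level. Spp1 (osteopontin) split by lane as Mmp12 did. It stood at 833, 366 and 621 CPM in lane 2 OIR, against 29.7, 44.1 and 29.2 CPM in lane 2 nonOIR. In lane 1 it ranged from 42.7 to 102 CPM in OIR and from 17.9 to 71.7 CPM in nonOIR. Its log2 fold change was 4.19 in lane 2 and 0.59 in lane 1, and the difference of 3.56 ± 0.57 (SE) passed the interaction test (edgeR adjusted p = 0.00881). The Spp1 call over all libraries (log2 fold change 2.74 ± 0.61 SE, edgeR adjusted p = 0.00747) was lost in lane 1 alone (edgeR adjusted p = 0.455), with limma-voom and with the replicate block. Ecm1 and Lgals3bp, which encode secreted glycoproteins, rose to 11.8 ± 5.43 and 709.8 ± 252 CPM in OIR, against 3.02 ± 2.67 and 467 ± 106 CPM in nonOIR, and their calls were lost in 6 (Ecm1) and 4 (Lgals3bp) of those 16 fits, and in lane 1 alone.

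Of 21 genes of matrix cross-linking and hyaluronan, 14 were tested, 3 rose and 0 fell. P4ha2, a subunit of collagen prolyl hydroxylase, stood at 5.19 ± 3.55 CPM in OIR and 0.742 ± 0.547 CPM in nonOIR (SD, n = 8), and its call was lost in lane 1 alone (edgeR adjusted p = 0.102). Hmmr, a hyaluronan receptor that also acts at the mitotic spindle, stood at 17.1 ± 7.90 CPM in OIR and 2.44 ± 1.68 CPM in nonOIR. Cd44, the main hyaluronan receptor of leukocytes, stood at 49.4 ± 18.5 CPM in OIR and 29.2 ± 9.36 CPM in nonOIR, and its call was lost in 12 of those 16 fits and in lane 1 alone. The lysyl oxidase gene Lox did not pass, at 5.75 ± 5.65 CPM in OIR and 3.54 ± 2.12 CPM in nonOIR.

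**Figure D5:**
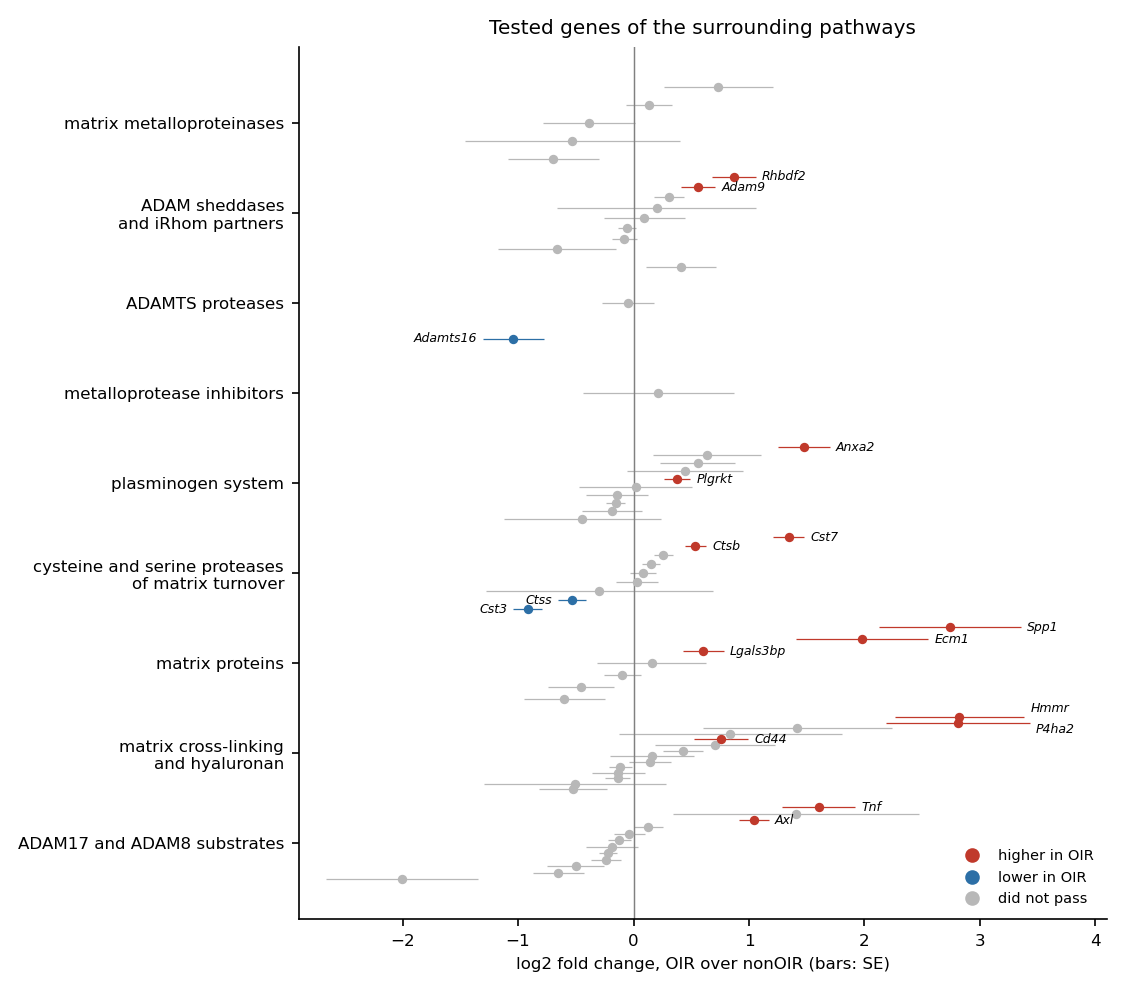
Log2 fold change of OIR over nonOIR with its SE for each tested gene of 9 surrounding lists, red where higher, blue where lower and grey where the gene did not pass. Spp1, P4ha2 and Hmmr lie farthest to the right among the genes that rose, and Adamts16, Cst3 and Ctss are those that fell.

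Of 12 genes of AP-1 and related factors, whose motif letters precede an Mmp12 start and the Plaur start, 11 were tested, 1 rose and 1 fell. Atf3 stood at 69.6 ± 23.0 CPM in OIR and 31.5 ± 5.17 CPM in nonOIR, and Jun at 106 ± 15.3 CPM in OIR and 144 ± 18.4 CPM in nonOIR (SD, n = 8). The Jun call was lost in lane 1 alone (edgeR adjusted p = 0.204). Fos did not pass, at 5.30 ± 1.49 CPM in OIR and 6.61 ± 4.04 CPM in nonOIR.

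The sorted cells carried microglial transcripts in every library. The 10 microglial markers summed to 38159 to 63417 CPM in OIR and 65173 to 80702 CPM in nonOIR, with Csf1r and P2ry12 among the highest, with 4 of 10 lower in OIR and 0 higher. The sums were 9.40 to 37.9 CPM in OIR and 21.2 to 42.7 in nonOIR for endothelium (led by Pecam1, Kdr and Cdh5). They were 0.0426 to 3.11 and 0 to 1.26 for neutrophils (led by Cxcr2, S100a8 and S100a9). For photoreceptors they were 35.3 to 364 and 55.4 to 461, with Gnat1 and Sag among the highest. Of 10 markers each, 3 (endothelium), 1 (neutrophils) and 7 (photoreceptors) were tested, and 0 passed. S100a8 and S100a9 were too low to test, so the calls say little about neutrophils. Of the retinal neuron markers (19.7 to 46.2 CPM in OIR and 37.5 to 83.3 in nonOIR, led by Snap25, Prkca and Calb2), 2 of 8 tested fell, and both tested erythrocyte markers, Hbb-bs and Hbb-bt, rose (1.88 to 292 CPM in OIR and 0 to 28.9 in nonOIR, with Hba-a1). The Müller glia and astrocyte list was dominated by Apoe, which microglia also express, and its sum split by lane in both groups. In lane 2 it ranged from 2197 to 2454 CPM in OIR and from 1256 to 1981.5 CPM in nonOIR. In lane 1 it ranged from 10356 to 19563 CPM in OIR and from 7822 to 10533 CPM in nonOIR. Among the 8 tested genes of this list Glul fell and Vim rose. The part of these cells in the results above was not tested.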

How the data were processed

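RNA was sequenced from 8 OIR and 8 nonOIR samples of sorted retinal microglia. Per the labels' protocols, 750 pg of RNA went into each library, the cDNA was amplified over 12 cycles, and the tagmentation kit used is one that does not mark strand, and reads were single and 50 bases long. Without molecular identifiers, reads are not independent molecules, and the floors given describe counting error alone. Per the file headers, the authors deposited a raw count of reads for each gene. The submitters' processing notes name the build mm10 and, without roles, featureCounts 1.6.2, STAR 2.6.0b-1 and DESeq2 2.11.40.2, and no annotation is named. The signal columns deposited by the authors are the counts divided by 1 factor per library. The authors' table also holds a log2 fold change, its standard error and Wald value (each a score) and p-values with adjusted p-values, which were used only where named.

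After filterByExpr and TMM scaling, OIR was compared with nonOIR in edgeR 4.0.16 under R 4.3.3 (robust quasi-likelihood fit, two-sided, Benjamini-Hochberg over 12496 genes, threshold 0.05). SE is the absolute log2 fold change over the square root of F. The same test gave every edgeR adjusted p printed, within lanes and for the interaction and covariate fits too. The test was checked on simulated counts of the same design. Positions and exon lengths came from GENCODE M21 on the same build, in which 54409 of the 54532 identifiers were found. The genes, lists and tests were chosen with earlier results of these data known. Named genes were the 10 studied, up to 4 called genes with the lowest p per list, the 3 markers with the highest CPM per cell type list, and the 5 most like Mmp12; some are not reported here. Other genes given with values were chosen after their values were seen. Alternatives covered scaling, filters, lane, replicate number, DESeq2 1.42.0, limma-voom (limma 3.58.1), a minimum fold of 1.5 and the omission of each library.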

Additional observations from a re-analysis of the deposited data

Results flagged for a closer look

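Of 42 groups of 8 libraries checked for a library far from the rest, 4 held one, and chance alone gives about 1 in 20. Fn1 stood at 10.3 CPM in nonOIR replicate 4, against a nonOIR median of 2.61 CPM, and its log2 fold change was 3.33 without that library. That was the highest with a single library left out, and the lowest was 2.55, without OIR replicate 3. Timp1 stood at 0.077 CPM in OIR replicate 8 and at 0 in the other OIR libraries, which is 2 counts. In nonOIR replicate 8 the pericyte and fibroblast markers summed to 10.3 CPM (nonOIR median 1.6) and the erythrocyte markers to 28.9 CPM (nonOIR median 1.11). The OIR change of Spp1 differed between the lane codes, by 3.56 on the log2 scale (lane 2 minus lane 1).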

How the results depend on the processing

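The call of Adam8 as higher in OIR held under all 29 alternatives, and 5 of the 10 genes were called higher with each single library left out (lowest and highest count both 5, and both 0 for lower). In lane 1 alone 1 was called higher, and 417 of all genes were called, with a minimum fold of 1.5 it was 3 and 152 genes, and with lane as a covariate 2159 genes were called. Leaving out each library gave between 935 and 1556 called genes. With a minimum fold of 1.5 the calls of Plaur (fold 1.94 in the main fit) and Tgfbi (fold 1.52) were lost. Both estimates lay above 1.5, but not by enough to pass against that fold. Timp2 passed with library size scaling (edgeR adjusted p = 0.0406), which put 73.7% of called genes higher in OIR, against 58.3% with TMM, and moved the median log2 fold change of all genes to 0.0379. Adam17, never called, turned to a log2 fold change of 0.0346 with that scaling and 0.15 in lane 2, and leaving out single libraries gave -0.10 to 0.0337 for Adam17 and -0.24 to 0.0038 for Mmp14, where the cause was not tested. For a pairing check, each gene's group mean was taken away from log2(CPM + 1), and the remaining deviations of the libraries were correlated over all tested genes. For same-numbered OIR and nonOIR libraries, r of these deviations was 0.0118 to 0.165 in lane 1 and 0.2 to 0.295 in lane 2. Lane was not taken out of these values, and same-numbered libraries share a lane, so the values cannot decide whether the numbers pair the libraries. The main fit took no pairing, and the replicate block is given as an alternative. With the replicate block 1679 genes and 5 of the 10 were called, and 2 of 8 OIR libraries, both in lane 2, correlated best with their own number. All 19 called genes of the surrounding lists kept their sign under each alternative, with 9 called in lane 1 and 16 in lane 2. With no low-count filter 15 kept their call, and with a minimum fold of 1.5 only 8 did. Ctsb, Ctss, Cst3 and Rhbdf2 were among those lost with that minimum fold. The interaction test called 76 genes with library size scaling and 82 with no low-count filter.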
